A study of Mus musculus with 3 samples.

Results

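The genes described here are 33 genes of interferon signalling: the receptors and a receptor kinase (5 genes), the transcription factors (8 genes) and genes that interferon induces (20 genes). The choice rule uses gene names and no measured value, though the list was drawn up with earlier results of these data known, and 31 of them are represented among the 18194 genes measured. A probe set, the unit of an Affymetrix array, counted for a gene only where its annotation names that gene alone, and a gene took the value of its probe set with the highest mean. Isg15 was left out because its probe set also names another gene, and no probe set listed here names Ifi44.

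The material was total RNA from mouse astrocytes made in culture from embryonic stem cells and labelled wild type. The stem cells passed through embryoid bodies for 4 days and a selection medium called ITSFn for 5 to 7 days, and the resulting neural precursors were kept in FGF2 and EGF2. At 18 passages from the embryoid bodies, the growth factors were withdrawn and 5% FBS was added for 5 days. The 3 samples form 1 group, with no untreated, interferon-treated or other control group, so no response to interferon was measured and the test available is signal against background. The labels do not say whether the samples came from separate cultures or name the stem cell line, so p-values reflect nothing beyond the scatter of these 3 samples, which may be technical. The number of arrays limits the precision.

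Interferons are secreted alarm signals. Type I interferons bind the pair Ifnar1 and Ifnar2, type II interferon binds Ifngr1 and Ifngr2, and kinases of the JAK family, among them Tyk2, pass the signal to STAT proteins. Stat2 joins Irf9 in a complex that binds the interferon-stimulated response element, and genes with this element encode proteins that sense or block viruses. Astrocytes respond to interferons and can make them during infection of the brain.

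All values are log2 of the deposited signal. Background was set per array from 78 chemosensory receptor genes (olfactory, vomeronasal, trace-amine, taste), whose 95th percentile is the limit, at 3.99, 4.10 and 4.07 on replicates 1, 2 and 3. A gene is called above background where its signal minus the limit was above 0 by limma's one-sample, one-sided test at a Benjamini-Hochberg adjusted p below 0.05, over 18116 genes. Of those genes 58.3% were above background. Of the 31 measured members 18 were (58.1%), a share near that of all genes, and their median distance from the limit was 1.31 log2 units against 1.76 over all genes tested. The roles differed in their counts, which is a description with no test between them: 5 of 5 receptor and kinase genes, 6 of 8 factor genes and 7 of 18 induced genes were above background. Their median distances were 3.47, 1.71 and 0.35 log2 units. These distances rest on the brightest probe set of each gene. When the median over probe sets stood for a gene, Ifnar1, Ifnar2, Ifngr1, Ifngr2 and Tyk2 lay 1.88, 1.98, 4.03, 2.19 and 1.15 log2 units above the limit. The counts of the 3 roles were then 5, 5 and 7, and 50.6% of all genes were above background. The level of one gene says nothing about another's, because probe sets differ in brightness, and in RNA from whole cultures fewer cells of a type and less RNA per cell cannot be told apart.

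**Figure D1:**
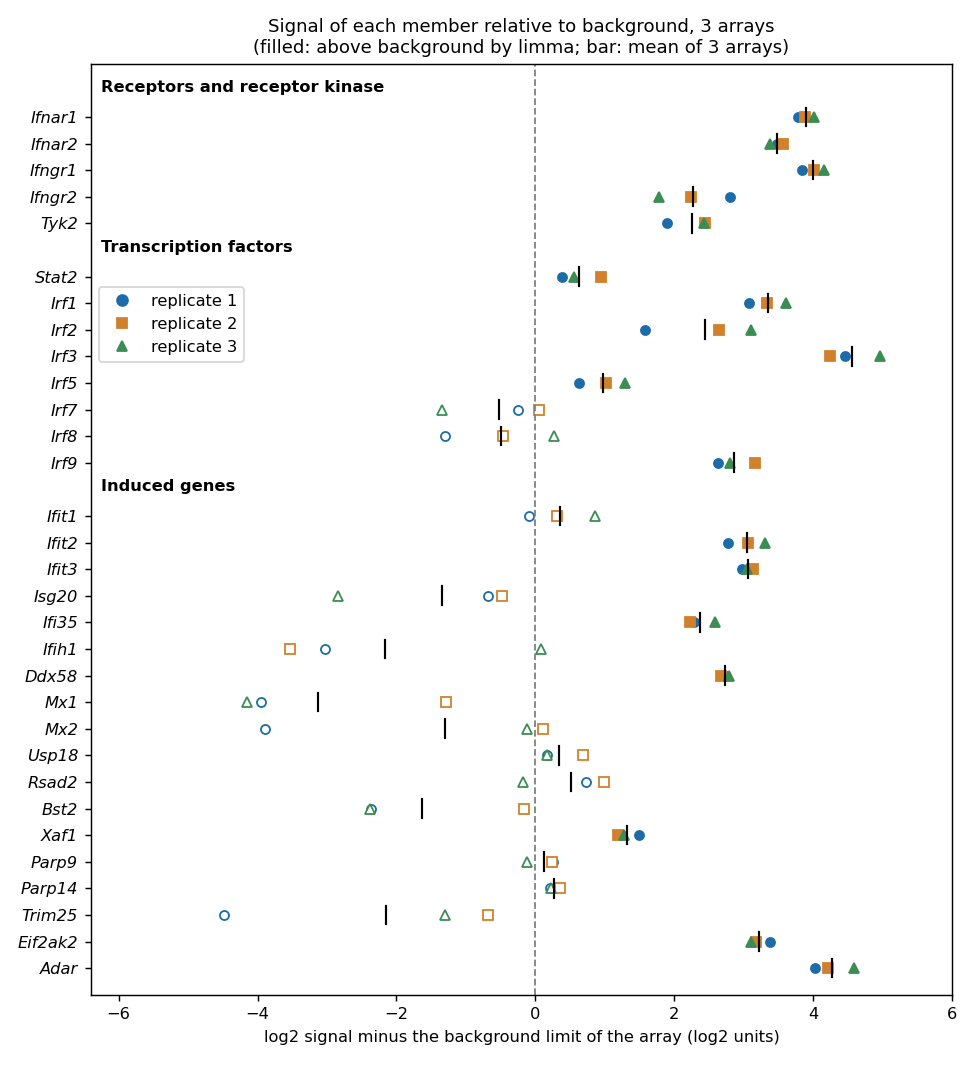
Log2 signal minus the background limit of each array (horizontal axis, log2 units) for the 31 measured members, grouped by role; points are the 3 arrays, the short bar is their mean, and filled points mark genes above background. All 5 receptor and kinase genes lie to the right of the limit on every array, whereas 11 of 18 induced genes have open symbols near or left of it.

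The receptors of both interferon types were above background. Ifnar1, a chain of the type I receptor, was at 7.77, 7.98 and 8.09 on the 3 arrays, a mean of 7.95 ± 0.16 (SD, n = 3; adjusted p = 5.23e-05, limma). Ifnar2, its partner chain, was at 7.47, 7.66 and 7.45, a mean of 7.52 ± 0.12 (adjusted p = 6.1e-05). All 3 probe sets of Ifnar2 were above background, while Ifnar1 passed on 1 of 2. For scale, 52.2% of all single-gene probe sets passed the same test. Ifngr1, the ligand-binding chain of the type II receptor, was at 7.83, 8.10 and 8.23 (adjusted p = 5.55e-05). On these brightest probe sets each of the 3 genes lay more than 3 log2 units above the limit on every array. The other probe set of Ifnar1 had a mean of 3.87 ± 0.49 and did not pass, and when the median over probe sets stood for the gene the distances of Ifnar1 and Ifnar2 were 1.88 and 1.98 log2 units.

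Ifngr2, the signalling chain of the type II receptor, was at 6.79, 6.34 and 5.85, and was above background at 6.32 ± 0.47 (adjusted p = 0.00138). Its other probe set was at 5.95, 6.14 and 6.26 and also passed. Replicate 1 was thus the highest array by one probe set of Ifngr2 and the lowest by the other, so the order of the arrays was not shared between them. Tyk2, the kinase bound to Ifnar1, was at 5.88, 6.54 and 6.50, a mean of 6.31 ± 0.37 (adjusted p = 0.000484). Its other probe set lay at the limit, with a mean of 4.05 ± 0.29, and did not pass, and the median over both gave a distance of 1.15 log2 units in place of 2.26. In the gene order of the GRCm38.p6 annotation Ifnar2, Il10rb, Ifnar1 and Ifngr2 are consecutive protein-coding genes, and all 4 were above background. Il10rb, a chain shared by the receptors for type III interferon and interleukin 10, was at 5.94 ± 0.20 (chosen after its value was seen). It passed on 1 of its 2 probe sets. Its type III partner Ifnlr1, also chosen after its value was seen, was at 2.62, 4.03 and 4.07, below the limit on every array.

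Among the transcription factors, the members above background were Irf1, Irf2, Irf3, Irf5, Irf9 and Stat2. Irf3, which is activated by viral nucleic acid sensors and drives interferon genes, was at 8.44, 8.33 and 9.03, a mean of 8.60 ± 0.38 (adjusted p = 9.09e-05, limma). It passed on 3 of 4 probe sets, whose means ran from 5.37 to 8.60, while the remaining probe set had a mean of 1.65 ± 1.69. The brightest one is of the kind whose probes can cross to other transcripts (ID ending in _x_at), and without such probe sets Irf3 was still 2.54 log2 units above the limit. The median over its probe sets gave 1.96 in place of 4.55. Irf1, an activator induced by type II interferon, was at 7.06, 7.43 and 7.69 on its only probe set (adjusted p = 0.000125). Irf9, the DNA-binding part of the complex with Stat2, was at 6.61, 7.26 and 6.87, also on 1 probe set (adjusted p = 0.000197).

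Irf2, which can repress genes that Irf1 activates, was at 5.57, 6.74 and 7.18, so replicate 1 lay more than 1 log2 unit under the other arrays (mean 6.50 ± 0.83, adjusted p = 0.00341). Its only probe set has an ID ending in _s_at, a kind that can bind several transcripts. Irf5, a factor of inflammatory genes, was at 4.61, 5.11 and 5.36, a mean of 5.03 ± 0.38 (adjusted p = 0.00792), with 1 probe set of 2 passing. When the median over probe sets stood for the gene, its distance from the limit was -0.14 log2 units. Stat2 was the member above background that lay closest to the limit, at 4.37, 5.05 and 4.63, a mean of 4.68 ± 0.34 (adjusted p = 0.0231). It did not pass without replicate 2 (adjusted p = 0.116), without replicate 3 (0.0711) or with the limit at the 99th percentile (0.319).

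Irf7 and Irf8 were the factors not above background. Irf7, which interferon itself induces and which drives most interferon-alpha genes, was at 3.73, 4.14 and 2.73, above the limit on replicate 2 alone. Irf8, a factor of microglia and other myeloid cells, was at 2.69, 3.64 and 4.33 on its brighter probe set and at 1.63, 0.42 and 0.52 on the other. Both genes had wide spreads, with SDs of 0.73 and 0.83 log2 units.

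**Figure D2:**
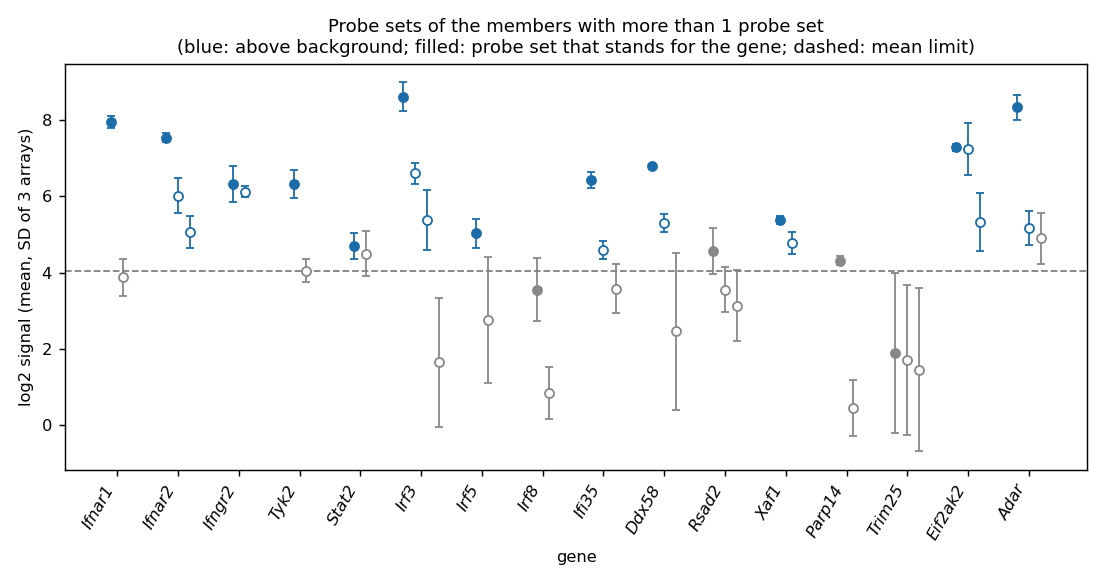
Mean log2 signal (vertical axis, error bars SD of 3 arrays) of every probe set of the 16 members with more than 1; blue marks probe sets above background, filled symbols the probe set that stands for the gene, and the dashed line the mean limit of 4.05. Of the 41 probe sets plotted 23 were above background, and those of Irf3 span 1.65 to 8.60. Of all 56 probe sets of the members 29 were above background (51.8%), near the 52.2% of all single-gene probe sets.

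The induced genes divided. Those above background were Ifit2, Ifit3, Ifi35, Ddx58, Xaf1, Eif2ak2 and Adar, and those not above it were Ifit1, Isg20, Ifih1, Mx1, Mx2, Usp18, Rsad2, Bst2, Parp9, Parp14 and Trim25. The count of 7 of 18 (38.9%) compares with 58.3% of all genes. With a 90th-percentile limit the count was 10, because Usp18, Rsad2 and Parp14 then passed, and 60.2% of all genes were above background.

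RNA-binding and RNA-editing genes were among those above background. Adar, which edits adenosine in double-stranded RNA, was at 8.01, 8.30 and 8.66, a mean of 8.32 ± 0.33 (adjusted p = 7.56e-05, limma), with 2 of 3 probe sets passing. Eif2ak2, which encodes the kinase PKR that stops translation on double-stranded RNA, was at 7.36, 7.28 and 7.18 (adjusted p = 7.9e-05), and all 3 of its probe sets passed. The other brightest probe set of Eif2ak2 was at 7.64, 7.62 and 6.44, so replicate 3 was lower there than the other arrays by more than on the probe set used. Ddx58, which encodes the RNA sensor RIG-I, was at 6.73, 6.77 and 6.85 (adjusted p = 9.27e-05) with an SD of 0.06. It passed on 2 of 3 probe sets, and the remaining one had a mean of 2.46 ± 2.04. The median over probe sets gave distances of 1.48 log2 units in place of 4.27 for Adar and 1.27 in place of 2.73 for Ddx58. Ifih1, which encodes the related sensor MDA5, was at 0.96, 0.57 and 4.15, above the limit on replicate 3 alone. Trim25, a ubiquitin ligase that activates RIG-I, was at -0.49, 3.42 and 2.78, and none of its 3 probe sets passed.

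The IFIT family, whose proteins bind viral RNA, was split. Ifit3 was at 6.96, 7.23 and 7.12, a mean of 7.11 ± 0.14 (adjusted p = 7.68e-05, limma), and Ifit2 was at 6.75, 7.15 and 7.38, a mean of 7.10 ± 0.32 (adjusted p = 0.000163). Ifit1 was at 3.89, 4.40 and 4.93, under the limit on replicate 1 and above it on the other arrays, and did not pass (adjusted p = 0.183). Each of these genes rests on 1 probe set. Ifit2 and Ifit3 are consecutive protein-coding genes, and 3 such genes lie between Ifit3 and Ifit1.

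Ifi35, whose product partners with Nmi, was at 6.28, 6.32 and 6.67, a mean of 6.42 ± 0.21 (adjusted p = 0.000228, limma). That probe set and another that passed have IDs ending in _s_at and _x_at. On the remaining one Ifi35 was at 4.31, 3.17 and 3.26, and without probe sets of those kinds its distance from the limit was -0.47 log2 units. The median over its probe sets gave 0.55 in place of 2.37. Xaf1, which promotes cell death, was at 5.48, 5.28 and 5.34, a mean of 5.37 ± 0.10 (adjusted p = 0.00114), and both of its probe sets passed.

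Several antiviral effectors well known as interferon-induced did not pass. Mx1 and Mx2, dynamin-like GTPases that block virus replication, were at 0.04, 2.80 and -0.08, and at 0.09, 4.20 and 3.96. Bst2, which encodes tetherin and holds virus particles at the cell surface, was at 1.63, 3.93 and 1.69. Isg20, an RNA exonuclease, was at 3.31, 3.61 and 1.22. Mx1, Bst2, Isg20 and Trim25 lay under the limit on all 3 arrays.

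Other induced genes lay close to the limit without passing. Rsad2, which encodes viperin, was at 4.72, 5.08 and 3.89 on its brightest of 3 probe sets, a mean of 4.57 ± 0.61 (adjusted p = 0.135, limma), and passed without replicate 3 (adjusted p = 0.0183). Its neighbour in the gene order, Cmpk2, a nucleotide kinase gene chosen after its value was seen, was at 6.72, 7.07 and 6.90 and passed on both probe sets. Usp18, which removes Isg15 from proteins and dampens type I receptor signalling, was at 4.16, 4.78 and 4.24, above the limit on each array (adjusted p = 0.109). Parp14 was at 4.20, 4.44 and 4.30, also above the limit on each array (adjusted p = 0.0926). It passed when only genes with a mean log2 signal of at least 3 were tested (adjusted p = 0.0496). Parp9 was at 4.23, 4.33 and 3.95 (adjusted p = 0.393). Dtx3l, which encodes the partner of Parp9 and lies between Parp14 and Parp9 in the gene order, was at 3.38, 4.08 and 3.92 and did not pass (chosen after its value was seen).

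Promoter sequence itself was not used in the choice of genes. Many were listed as genes that interferon induces, however, and the response element is part of that pathway, so its share among them is not independent of the choice. RefSeq promoters of the GRCm38.p6 build, 250 bases before to 50 after each start, were matched by symbol for 28 of the 33 members. They were searched on both strands, overlaps allowed, for the core of the interferon-stimulated response element, GAAANNGAAA. Of 32851 promoters 3.44% hold this core, and of 27025 genes 3.99% have it in at least 1 promoter. It was present for 10 of the 28 members (35.7%): 0 of 5 receptor and kinase genes, 2 of 8 factor genes and 8 of 15 induced genes. Over the 250 bases before the start alone it was present for 7 of 28 members (25%), against 3.46% of genes.

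The following windows are shown because they hold cores before the start of measured genes on either side of the limit. Each runs from 160 to 51 bases before the start in the direction of the gene, and capitals mark the cores, which read TTTCNNTTTC where they lie on the opposite strand. Of the genes shown, Ifit3 was above background, and the others were not. Stat2 and Irf2, the factor genes with a core, were above background. Their cores begin 222 and 241 bases before the start, outside the stretch shown. The windows are chr19:34583369-34583478 (plus strand) for Ifit3, chr19:34640729-34640838 (plus) for Ifit1, chr12:26456503-26456612 (minus) for Rsad2 and chr8:71537523-71537632 (minus) for Bst2.
Ifit3: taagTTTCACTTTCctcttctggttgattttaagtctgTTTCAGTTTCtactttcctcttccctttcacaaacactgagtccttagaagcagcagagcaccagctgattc
Ifit1: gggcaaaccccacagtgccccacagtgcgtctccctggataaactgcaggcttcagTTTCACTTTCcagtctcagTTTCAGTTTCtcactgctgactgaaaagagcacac
Rsad2: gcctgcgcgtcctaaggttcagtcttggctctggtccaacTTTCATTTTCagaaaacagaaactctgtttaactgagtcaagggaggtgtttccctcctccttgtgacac
Bst2: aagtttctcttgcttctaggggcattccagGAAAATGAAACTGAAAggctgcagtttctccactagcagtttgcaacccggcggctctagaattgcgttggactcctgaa

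Ifit3 and Ifit1 each hold 2 cores, beginning 156 and 122 bases before the start of Ifit3 and 104 and 85 before that of Ifit1, with the same letters in the same order. Ifit3 passed the test against background and Ifit1 did not. In Bst2 both cores overlap, and Rsad2 has 1. After the start, cores were found in Ddx58 and Eif2ak2, which were above background, and in Ifih1, which was not. Among induced genes with a value, a promoter was matched for all 7 above background but for 6 of 11 not above it. A core was held by 3 of those 7 and by 4 of those 6, so it was found on both sides of the limit. The 5 induced genes with no matched promoter were all not above background, so these counts do not compare the groups. These are matches of letters, not binding sites. The gamma-activated site TTCNNNGAA, which reads the same on both strands, was present for 11 of 28 members (39.3%), against 9.55% of all genes and 8.3% of promoters. Among the receptors it was found for Ifnar1 and Ifnar2, and among the factors for Irf1, Irf2 and Irf8.

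**Figure D3:**
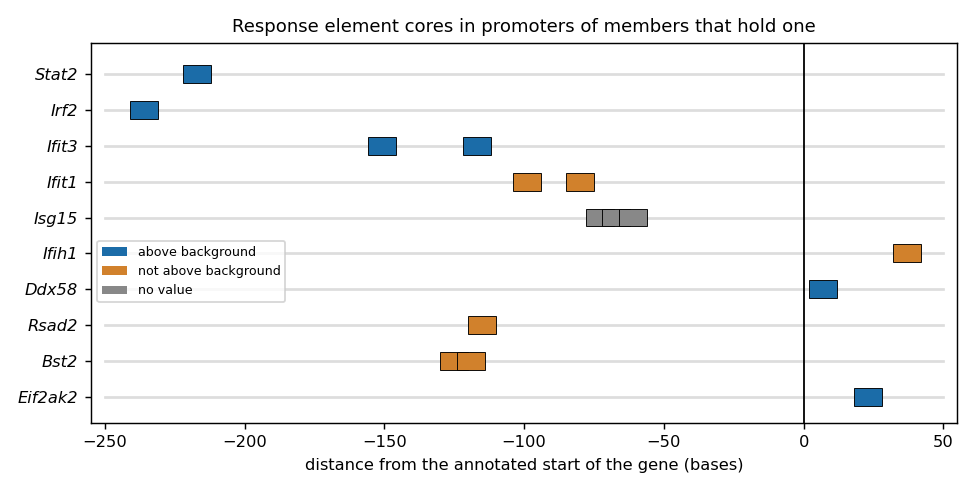
Position of each GAAANNGAAA core (boxes of 10 bases, either strand) relative to the annotated start (horizontal axis, bases) in the promoters of the 10 members that hold one; colours give the signal call. Cores of Ifit3 (above background) and of Ifit1, Rsad2 and Bst2 (not above) all begin between 156 and 85 bases before the start, and those of Ddx58, Eif2ak2 and Ifih1 lie after it.

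Other genes of the pathway were taken from lists by function. Of 10 measured interferon ligand genes 1 was above background (10%, against 58.3% of all genes). Ifnb1, the gene of interferon beta, was at 3.32, 3.69 and 3.45, and Ifng, of type II interferon, at -1.07, 3.04 and -1.58. Ifna1, Ifna2, Ifna4 and Ifna5, of the interferon alpha family, had means of 2.85, 1.80, 0.54 and 0.50, and all 9 ligand genes that did not pass were under the limit on all 3 arrays. The ligand gene that passed was Ifnz (chosen after its value was seen), at 5.99, 5.97 and 5.94 on 1 probe set. The alpha and zeta interferon genes have near-identical copies that can share probes, so these values are uncertain as to the gene.

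Of 12 measured signalling partners and inhibitors 9 were above background (75%, against 58.3% of all genes). When the median over probe sets stood for a gene 6 were, and 50.6% of all genes were. Jak1 and Jak2, the kinases that act with the receptors, were at 9.61 ± 0.19 and 9.03 ± 0.36. Stat3, a STAT used mainly by cytokines of the interleukin 6 family, was at 10.41 ± 0.22, and Ptpn11, a phosphatase of cytokine receptors, at 10.81 ± 0.15. Stat3 passed on 4 of 4 probe sets and Jak2 on 2 of 2, but Jak1 passed on 2 of 3 and Ptpn11 on 1 of 3. The feedback inhibitors differed: Socs3 was above background at 7.56 ± 0.48 on all 3 probe sets, and Socs1 was at -1.01, 2.72 and 1.11 and was not.

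Of 15 measured genes of nucleic acid sensing 8 were above background (53.3%, near the 58.3% of all genes). Mavs, the adaptor downstream of RIG-I, was at 7.36 ± 0.24, and Tbk1, the kinase that activates Irf3, at 8.30 ± 0.30. Sting1, the adaptor for cytosolic DNA, was at 5.85 ± 0.37 and passed on 1 of 2 probe sets, whereas Mavs and Tbk1 passed on 2 of 2. Ikbke, a kinase related to Tbk1, passed narrowly at 4.62 ± 0.38 (adjusted p = 0.0452, limma). Its only probe set did not pass in the test over all single-gene probe sets. Cgas, the DNA sensor upstream of Sting1, was at 3.78, 4.49 and 3.29, and the endosomal RNA receptor Tlr3 was at 2.58, 2.13 and 3.83, neither above background.

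Of 42 further induced genes 21 were above background (50%, against 58.3% of all genes). Among the first 10 in list order, those that passed were Ifitm3, which blocks virus entry, at 8.71 ± 0.20, Gbp2, a guanylate-binding protein, at 8.16 ± 0.10, Irgm1, an immunity-related GTPase, at 5.97 ± 0.34, and the chemokine gene Cxcl10 at 5.53 ± 0.57. B2m, the light chain of class I molecules, was at 11.17 ± 0.16 and the peptide transporter Tap1 at 5.84 ± 0.05. Gbp2 and B2m passed on 2 of 2 probe sets, but Tap1 passed on 1 of 4. Those that did not pass were Oas1a, Oas2 and Oasl2, of the oligoadenylate synthetase family, with means of 3.71, 3.45 and 4.09, and the immunoproteasome subunit Psmb8 at 3.03. Oas1a varied from 1.94 to 5.11 over the arrays.

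**Figure D4:**
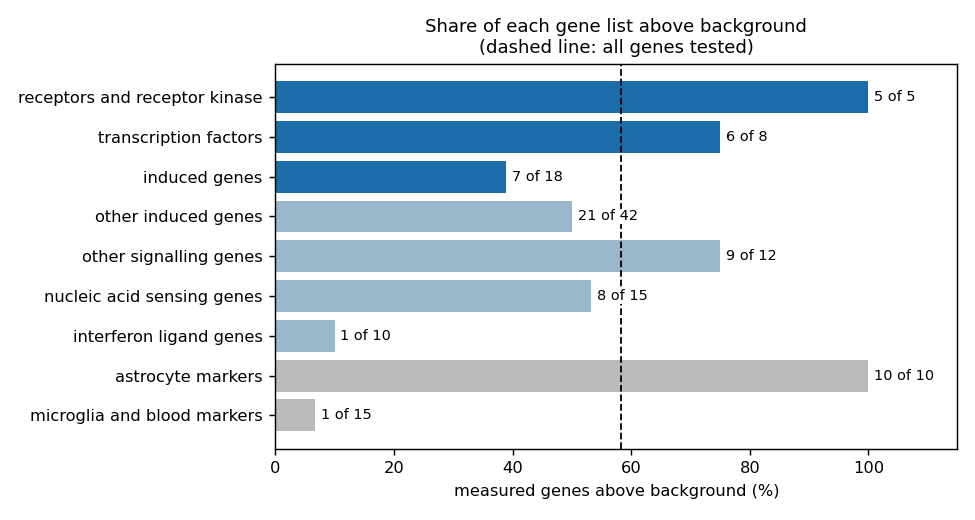
Share of measured genes above background (horizontal axis, %) for the members by role (dark blue), other pathway lists (light blue) and cell markers (grey), with counts beside the bars and the 58.3% of all genes tested as a dashed line. Receptor and kinase genes stand at 5 of 5 and ligand genes at 1 of 10.

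Of 10 astrocyte markers, among them Gfap, Aqp4, S100b and Slc1a3, all 10 were above background. The 58.3% of all genes tested that were above background is the share to set beside each marker count here. Of 15 microglia and blood markers 1 was above background (Csf1r at 5.34 ± 0.18, with 1 of 3 probe sets passing, chosen after its value was seen). Aif1, Itgam, Cx3cr1 and Ptprc had means of 1.79, 1.98, 3.08 and 1.56. The summed linear signal of that list was 165.3, 193.1 and 148.7 on the 3 arrays, and no marker was listed at 0. The part of such cells in the members' signals was not tested. Of 8 endothelial markers 1 passed, Kdr at 6.59 ± 0.46, and of 8 mesenchymal markers 2 passed, Acta2 at 9.83 ± 0.21 and Tagln at 7.71 ± 0.14, all 3 chosen after their values were seen. Acta2 passed on 1 of 3 probe sets, and the ID of the one used ends in _s_at. The median signal per probe set was 20.02, 23.29 and 19.44, so the medians differed between arrays.

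To compare the arrays, the mean of each gene was subtracted from its 3 values, and then the median of these differences over all genes above background on that array. The range over the 3 arrays had a median of 0.39 log2 units in the 18 members above background, close to the 0.35 over all 10570 genes above background. Ifnar1 had the smallest range, 0.04, and Ifngr1 had 0.08. Ifngr2 and Irf2 had the widest, 1.29 and 1.27, and 99.2% of genes above background had a smaller range than either. Ifngr2 was highest on replicate 1 and lowest on replicate 3, and Irf2 the reverse. For Ifngr2 this width is that of the probe set used, whose SD before centring was 0.47. Its other probe set, also above background, was at 5.95, 6.14 and 6.26 with an SD of 0.15, so the spread was not shared between them. The lowest array was replicate 1 for 7, replicate 2 for 2 and replicate 3 for 9 of the 18, against 33.5%, 26.4% and 40.1% of all genes above background. These counts depend on the centring. After quantile normalization replicate 3 was no longer the lowest array for Ifnar1, Stat2, Irf9, Ddx58 and Xaf1. In the 13 members not above background the median range was 1.56, against 1.60 over all genes not above it.

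**Figure D5:**
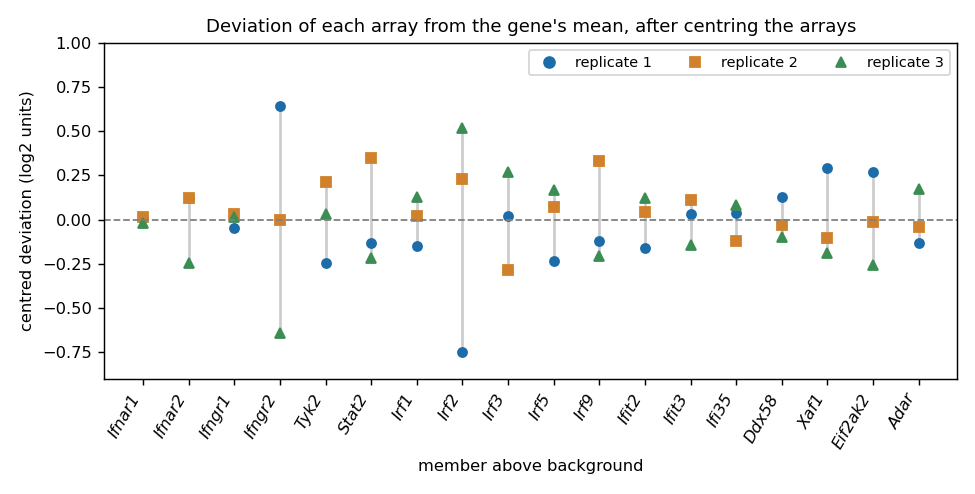
Difference of each array from the gene's mean after centring (vertical axis, log2 units) for the 18 members above background; symbols are the 3 arrays. Ifngr2 and Irf2 have ranges of 1.29 and 1.27 with opposite order of replicates 1 and 3, and 16 members stay within 1 log2 unit. Each gene is shown by its brightest probe set. Before centring, that of Ifngr2 had an SD of 0.47 and its other probe set one of 0.15.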

How the data were processed

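Affymetrix Mouse Genome 430 2.0 arrays (1 colour) were used, per the labels' protocols. The values are deposited in a table with the authors' linear intensity for 45101 probe sets. The software was GCOS 1.4, per the submitters' processing notes; its settings, scaling target and any calls of presence are not given in these sources. Of the probe sets 34958 name 1 gene and 932 several. Log2 was taken with no pseudocount. Tests used limma 3.58.1 (lmFit, eBayes) in R 4.3.3, on the difference between log2 signal and the limit, and the procedure was tested on simulated data. Single probe sets were tested in the same way against the same limits, an analysis added after the values were seen. At an unadjusted p below 0.05 the count of genes was 10713. The members and lists were chosen with earlier results of these data known, so their counts are descriptions. All members are named, and of other lists the first 6 measured genes (10 of the further induced genes, 4 of the astrocyte and microglia lists); genes outside this rule are marked as chosen after their values were seen. Errors are SDs over 3 arrays.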

Additional observations from a re-analysis of the deposited data

How the results depend on the processing

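The 8 counts of genes above background were recomputed under 12 alternatives, and each stayed within 1.5 times its main value, as did the 10 members with a response element core and the median range between arrays (0.41 after quantile normalization). The members' count ran from 16 to 21, that of receptor and kinase genes was 5 throughout, and those of factor and induced genes ran from 5 to 6 and from 6 to 10. The share of all genes above background moved too, from 50.6% with the median over probe sets to 60.2% with a 90th-percentile limit. It was 79.9% of the 13483 genes with a mean log2 signal of at least 3. For 25 of the 31 measured members no call changed; the others were Stat2, Irf5, Ifi35, Usp18, Rsad2 and Parp14. Among members above background, the distance from the limit turned negative for Irf5 with the median over probe sets (-0.14 log2 units) and for Ifi35 without _s_at and _x_at probe sets (-0.47). Members that did not pass also changed sign: Rsad2 (-0.31) and Parp14 (-1.64) with the median over probe sets, and Ifit1 (-0.02), Usp18 (-0.03), Parp9 (-0.26) and Parp14 (-0.11) with a 99th-percentile limit. Irf2 had no value without such probe sets, and members with a mean log2 signal under 3 had none under that filter. The design has 1 group, so nothing could be paired. Array images, detection calls and probe-level background were not used here.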
